A study of Mus musculus with 6 samples.

Results

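The genes described here are 44 fibroblast and extracellular matrix genes, named as a set by their roles and not by a threshold on their values: collagens, basement membrane and elastic fibre proteins, proteoglycans, matricellular proteins, matrix proteases with their inhibitors, and markers of fibroblasts. The set was chosen with earlier results of these data known. All 44 were found among the 20121 genes with deposited counts, and all 44 passed the filter on low counts that left 14877 genes to be tested. Gene expression was measured by RNA sequencing of whole mouse hearts at postnatal day 14, on a mixed (ICR; C57BL/6) background. The mutant group (Myh6-Cre; TRalphaAMI, 3 pups) carried a Cre transgene and an allele from which Cre activates a dominant negative thyroid hormone receptor alpha. The control group (3 littermates, TRalphaAMI) carried the same receptor allele without Cre. The Myh6 promoter drives Cre in heart muscle cells, so the design alters the receptor in those cells, while fibroblasts make most of the matrix. No group carried Cre alone, so effects of Cre and of the altered receptor cannot be told apart.

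Fibroblasts are the main makers of the interstitial matrix of the heart. Fibrillar collagens give it tensile strength, elastic fibres give recoil, and small proteoglycans space the collagen fibrils. Heart muscle cells and capillaries are each wrapped in a basement membrane, a sheet in which networks of laminin and collagen IV are linked by nidogen. The sheet is built by several cell types, muscle and endothelial cells among them. Matrix metalloproteinases cut matrix proteins, and tissue inhibitors of metalloproteinases (TIMPs) block them. In the first weeks of life the heart lays down matrix while its muscle cells mature, and thyroid hormone, which acts through receptors that bind DNA, is a known driver of that maturation.

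Libraries held 43314706 to 62095277 counts. Levels below are CPM, the count of a gene relative to the size of its library, scaled by TMM, which sets libraries to a common level for most genes, and a call means an adjusted p under 0.05 in the quasi-likelihood test of edgeR, with Benjamini-Hochberg adjustment across the 14877 genes. Thra, the altered gene, had 124.6, 142.2 and 143.0 CPM in mutant hearts, against 66.8, 81.6 and 81.7 CPM in control hearts (log2 fold change 0.83, SE 0.09, edgeR adjusted p = 1.006e-04). These counts do not separate the altered from the normal transcript. Mitochondrial genes took 16.7% to 18.8% of the counts in mutant hearts and 22.4% to 24.9% in control hearts. Myh6, the major adult myosin heavy chain of heart muscle, averaged 3830 CPM in mutant hearts and 37270 CPM in control hearts. Scaling by library totals alone, without TMM, moved the median log2 fold change of all genes by 0.28. The labels call the pups littermates and say no more of how they are related. The error behind each edgeR p-value rests on the spread among hearts of a group, drawn toward that of other genes.

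The matrix genes changed modestly and in both directions. Of the 44, 15 were called higher in mutant hearts, 5 were called lower and 24 were not called. These calls made up 34.1% higher, 11.4% lower and 45.5% in either direction, against 18.1%, 19.5% and 37.5% of all genes tested. All 20 called genes changed by less than 2-fold, whereas 7.51% of all genes tested were called and changed by at least 2-fold. The median log2 fold change of the 44 was 0.13, and that of all genes tested was -0.00. The groups did not overlap for 22 of the 44 (17 higher and 5 lower), all 20 called genes among them, and for 49.8% of all genes tested (24.4% higher and 25.4% lower). The log2 fold change was positive for 28 of the 44 and for 49.9% of all genes. Without mutant replicate 2, 12 were called higher and 3 lower, where 13.5% and 14.8% of all genes were, and without control replicate 2, 12 higher and 2 lower, where 14.0% and 15.6% of all genes were. In whole hearts, fewer cells of a type and less RNA per cell cannot be told apart.

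**Figure D1:**
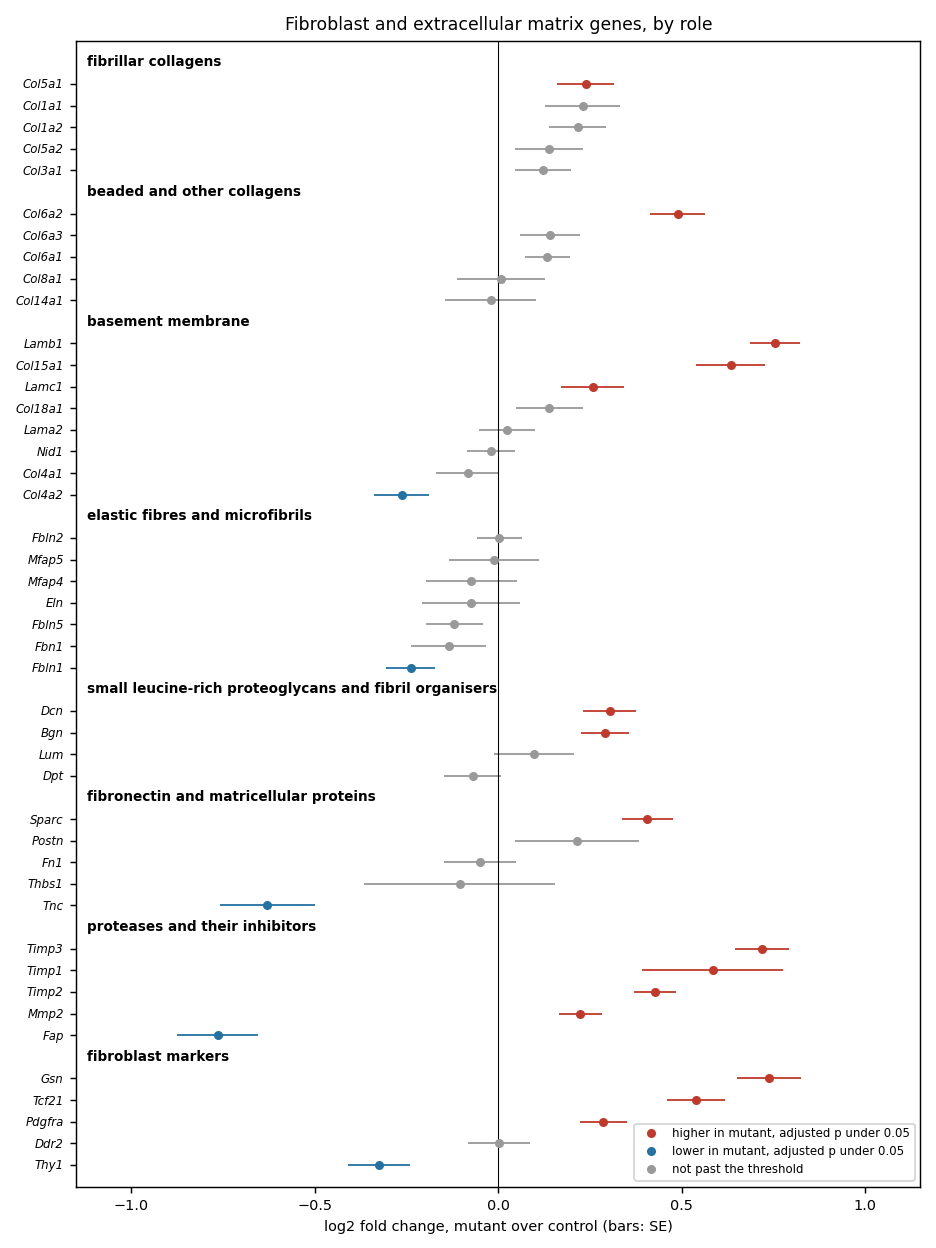
Log2 fold change (mutant over control, edgeR with TMM, x axis) of each of the 44 genes, grouped by role, with bars of 1 SE. The 15 genes called higher lie right of 0, led by Lamb1 at 0.75, and the 5 called lower lie left of it, led by Fap at -0.76.

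The balance of directions depended on the scaling. With library totals only, 29 of the 44 were called higher and 2 lower (Tnc and Fap), with a median log2 fold change of 0.41, where 50.3% of all genes tested were called higher, 8.11% lower and 58.4% either way, and the median of all was 0.28. Limma on deposited RPKM, which has the same scaling, called 29 higher and 1 lower (Fap) with a pseudocount of 1, beside 49.4%, 8.17% and 57.6% of all genes, and again 29 and 1 with a pseudocount of 0.1, beside 49.7%, 8.21% and 57.9%. DESeq2, with size factors of its own, called 16 higher and 5 lower, beside 16.1%, 16.9% and 33.1% of the 16214 genes to which it gave an adjusted p. The falls of Tnc and Fap were -0.34 and -0.48 on the log2 scale with library totals only. Taken relative to that median, the 44 stood 0.13 above it on either scaling. The 44 genes together took 1.442%, 1.581% and 1.526% of all counts in mutant hearts, against 1.122%, 1.138% and 1.024% in control hearts. In TMM-scaled CPM the sums were 13330, 14290 and 13580 in mutant hearts, against 12400, 12540 and 11320 in control hearts, so the groups did not overlap on either scale.

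Basement membrane genes held the call with the smallest adjusted p of the 44. Of these 8 genes, 3 rose (Lamb1, Col15a1 and Lamc1) and 1 fell (Col4a2). For this and the other role groups of the 44, the shares of all genes tested were 18.1% called higher, 19.5% lower and 37.5% either way. Lamb1, on chromosome 12 (12:31265234-31329644, mm10), encodes the beta 1 chain of laminin. Lamb1 had 525.5, 574.6 and 571.1 CPM in mutant hearts, against 334.0, 347.3 and 310.1 CPM in control hearts. Every mutant heart stood above every control heart by a gap wider than the spread within either group. The change was 1.69-fold (log2 0.75, SE 0.07, edgeR adjusted p = 3.185e-05).

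Col15a1, a non-fibrillar collagen that ties basement membranes to the interstitial matrix, had 335.8, 353.3 and 406.1 CPM in mutant hearts, against 251.9, 245.8 and 208.5 CPM in control hearts. The groups did not overlap, and the change was 1.55-fold (log2 0.63, SE 0.09, edgeR adjusted p = 6.331e-04). Lamc1, the gamma 1 chain that joins most laminins, had 706.2, 734.9 and 728.5 CPM in mutant hearts, against 665.2, 624.6 and 526.2 CPM in control hearts. Control replicate 3 stood well below the other control hearts there. The log2 fold change of Lamc1 was 0.26 (SE 0.09, edgeR adjusted p = 0.0422). Its call was lost without mutant replicate 1, 2 or 3 or without control replicate 2 or 3, with adjusted p between 0.0194 and 0.129 over the 6 fits that each leave out 1 heart.

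Of the collagen IV chains, Col4a2 fell and Col4a1 was not called. Col4a1 and Col4a2 lie head to head on mouse chromosome 8, with 22 bases of overlap between their annotated ends, and their chains form the collagen IV network of vessels and muscle. Col4a2 had 878.3, 967.3 and 887.2 CPM in mutant hearts, against 1068, 1183 and 1030.0 CPM in control hearts, with no overlap (log2 fold change -0.26, SE 0.07, edgeR adjusted p = 0.0202). Col4a1 had 1454, 1566 and 1404 CPM in mutant hearts, against 1565, 1721 and 1400.0 CPM in control hearts, and its groups overlapped (log2 fold change -0.08, SE 0.09, edgeR adjusted p = 0.484). The fall of Col4a2 was lost without mutant replicate 3 or control replicate 2 (adjusted p 0.02003 to 0.0729 over the 6 fits). With library totals only its log2 fold change was 0.02, which is -0.26 relative to the median of all genes.

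The other basement membrane members were not called. Lama2, the laminin alpha 2 chain of muscle, had a log2 fold change of 0.02 (SE 0.08), and Nid1, or nidogen, which bridges laminin and collagen IV, had -0.02 (SE 0.07). Col18a1, whose cleavage releases endostatin, had 0.14 (SE 0.09). With library totals only Nid1 was 0.26 and called, which is -0.02 relative to the median of all genes.

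TIMPs rose together with Mmp2. Of the 5 proteases and inhibitors, 4 rose (Timp3, Timp2, Timp1 and Mmp2) and Fap fell, with a median log2 fold change of 0.43. Among all genes tested, 18.1% were called higher and 19.5% lower. When 1 heart was left out, 2 to 4 of the 5 were called higher and 1 lower. Timp3, which unlike other TIMPs is held on the matrix, had 314.6, 330.3 and 286.7 CPM in mutant hearts, against 199.8, 178.3 and 188.3 CPM in control hearts. No control heart came near the lowest mutant heart. The change was 1.65-fold (log2 0.72, SE 0.07, edgeR adjusted p = 6.086e-05). Exons of Syn3 on the other strand overlap 21.3% of the exon bases of Timp3, and the kit does not mark strand, so reads there cannot be assigned to either gene.

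Timp2, an inhibitor that also takes part in activating the Mmp2 protein, had 196.0, 199.6 and 201.9 CPM in mutant hearts, against 149.2, 152.7 and 142.3 CPM in control hearts. Both groups were tight and apart (log2 fold change 0.43, SE 0.06, edgeR adjusted p = 3.106e-04). Mmp2, a gelatinase, had 168.7, 170.5 and 174.5 CPM in mutant hearts, against 138.8, 151.3 and 149.8 CPM in control hearts. Mmp2 also did not overlap between groups, by a smaller margin (log2 fold change 0.22, SE 0.06, edgeR adjusted p = 0.0148), and it was not called without mutant replicate 3 (0.0205 to 0.0579 over the 6 fits).

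Timp1 was expressed at a low level, with 2.19, 2.64 and 2.596 CPM in mutant hearts, against 1.22, 1.62 and 2.07 CPM in control hearts. Its lowest mutant heart lay just above its highest control heart, and the log2 fold change was 0.58 (SE 0.19, edgeR adjusted p = 0.0378). The call ended without mutant replicate 2 or 3 or control replicate 1 or 2 (0.00975 to 0.116 over the 6 fits).

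Fap, a surface serine protease known from activated fibroblasts, changed most among the genes that fell. Fap had 6.04, 5.98 and 6.79 CPM in mutant hearts, against 11.9, 9.44 and 10.7 CPM in control hearts. The groups were well apart, and Fap was 1.70-fold lower in mutant hearts (log2 fold change -0.76, SE 0.11, edgeR adjusted p = 5.031e-04).

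Fibroblast markers did not move as a block. Of 5 markers, 3 rose (Gsn, Tcf21 and Pdgfra), Thy1 fell and Ddr2 was not called. Gsn, or gelsolin, severs actin filaments and is abundant in heart fibroblasts, though other cells make it too. Gsn had 948.8, 815.2 and 936.8 CPM in mutant hearts, against 491.4, 542.1 and 586.0 CPM in control hearts. The groups did not overlap and the change was 1.67-fold (log2 0.74, SE 0.09, edgeR adjusted p = 1.481e-04).

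Tcf21, a transcription factor needed to form heart fibroblasts, had 17.8, 18.5 and 17.3 CPM in mutant hearts, against 12.7, 12.9 and 11.4 CPM in control hearts. Pdgfra, the PDGF receptor that marks resident heart fibroblasts, had 127.1, 113.0 and 114.8 CPM in mutant hearts, against 98.3, 98.2 and 94.6 CPM in control hearts. For both, every mutant heart was above every control heart. The log2 fold changes were 0.54 for Tcf21 (SE 0.08, edgeR adjusted p = 5.362e-04) and 0.29 for Pdgfra (SE 0.06, edgeR adjusted p = 0.00663).

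Ddr2, a receptor tyrosine kinase for collagen and also a fibroblast marker, had 47.8, 42.9 and 44.1 CPM in mutant hearts, against 49.8, 44.3 and 40.7 CPM in control hearts. The groups overlapped fully, with a log2 fold change of 0.00 (SE 0.08, edgeR adjusted p = 0.9901). Thy1, a surface glycoprotein of fibroblasts, neurons and T cells, had 8.60, 8.80 and 9.65 CPM in mutant hearts, against 11.6, 11.6 and 10.7 CPM in control hearts. Its groups did not overlap (log2 fold change -0.33, SE 0.09, edgeR adjusted p = 0.0141). The fall of Thy1 was not called without mutant replicate 2 or control replicate 2 (0.0153 to 0.0598 over the 6 fits), and with library totals only it was -0.04, which is -0.32 relative to the median of all genes.

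**Figure D2:**
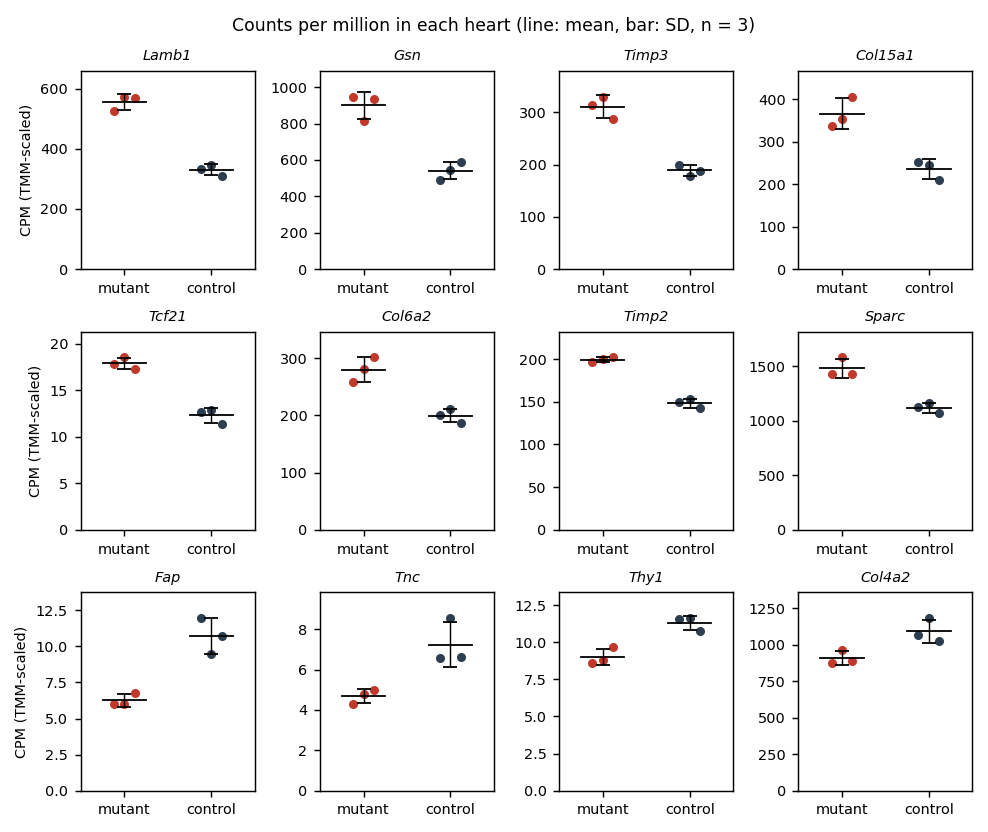
TMM-scaled CPM (y axis, from 0) of each heart for 12 called genes, 1 panel per gene, with mutant hearts left of control hearts, a line at each group mean and bars of 1 SD (n = 3). The mutant points lie above all control points for 8 genes such as Lamb1, Timp3 and Gsn, and below them for Fap, Tnc, Thy1 and Col4a2.

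With TMM, collagens of the interstitial matrix mostly missed the threshold. Of 5 fibrillar collagen genes, 1 was called, Col5a1, where 37.5% of all genes tested were called. The median log2 fold change of the 5 was 0.22, with no gene below 0. With library totals only all 5 were called higher, where 50.3% of all genes were. Their median was then 0.50, which is 0.22 relative to the median of all genes. DESeq2 called 2 of the 5, and leaving out 1 heart gave 0 to 3 called. Col3a1, the chain of collagen III and the most abundant of them per length, had 1240.0, 1437 and 1316 CPM in mutant hearts, against 1280.0, 1233 and 1157 CPM in control hearts. Those ranges overlapped (log2 fold change 0.12, SE 0.08, edgeR adjusted p = 0.237). Col5a1, whose collagen V starts fibrils, had 225.2, 243.7 and 261.1 CPM in mutant hearts, against 216.2, 214.4 and 188.5 CPM in control hearts. The groups did not overlap (log2 fold change 0.24, SE 0.08, edgeR adjusted p = 0.0382), but the call was lost without mutant replicate 2 or 3 or control replicate 2 or 3 (0.0171 to 0.144 over the 6 fits).

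Of the chains of collagen I, the main fibril former, neither was called, and Col1a2 was close to the threshold. Col1a2 had 377.1, 452.2 and 431.7 CPM in mutant hearts, against 376.7, 362.1 and 346.9 CPM in control hearts. Its groups were separated by less than 1 CPM (log2 fold change 0.22, SE 0.08, edgeR adjusted p = 0.0545), and DESeq2 called it (0.0312). Col1a1 had 281.5, 365.6 and 356.5 CPM in mutant hearts, against 278.3, 309.2 and 268.4 CPM in control hearts, where mutant replicate 1 stood among the controls. Col1a1 had a log2 fold change of 0.23 (SE 0.10, edgeR adjusted p = 0.107). Without mutant replicate 1, both were called (edgeR adjusted p = 0.00609 for Col1a1 and 0.00833 for Col1a2). Neither was called in any other of the 6 fits, where edgeR adjusted p reached 0.326 for Col1a1 and 0.205 for Col1a2. Col5a2, the partner chain of Col5a1, had 0.14 on the log2 scale (SE 0.09, edgeR adjusted p = 0.274).

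Among the beaded and other collagens, 1 of 5 was called. Col6a2, a chain of the beaded collagen VI that surrounds muscle cells, had 258.4, 281.0 and 301.6 CPM in mutant hearts, against 200.5, 211.4 and 187.6 CPM in control hearts. The groups did not overlap (log2 fold change 0.49, SE 0.08, edgeR adjusted p = 7.754e-04). The partner chains Col6a1 (0.13, SE 0.06) and Col6a3 (0.14, SE 0.08) were not called on the same log2 scale, nor were Col8a1, a network collagen of vessels (0.01, SE 0.12), and Col14a1, which sits on collagen fibrils (-0.02, SE 0.12).

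Among matricellular proteins Sparc rose and Tnc fell. Sparc, a collagen-binding protein and the most abundant of the 44 per length, had 1424, 1579 and 1429 CPM in mutant hearts, against 1123, 1158 and 1066 CPM in control hearts. The mutant hearts were all higher (log2 fold change 0.41, SE 0.07, edgeR adjusted p = 0.00146). Tnc, or tenascin C, is known from embryonic and injured heart. Tnc had 4.28, 4.80 and 4.97 CPM in mutant hearts, against 6.56, 8.54 and 6.61 CPM in control hearts. All mutant hearts were lower, with control replicate 2 the highest of all (log2 fold change -0.63, SE 0.13, edgeR adjusted p = 0.00405).

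Postn, or periostin, a product of activated and newborn fibroblasts, had 236.2, 290.3 and 220.5 CPM in mutant hearts, against 274.5, 204.6 and 165.0 CPM in control hearts. The groups overlapped, because control replicate 1 lay among the mutant hearts (log2 fold change 0.21, SE 0.17, edgeR adjusted p = 0.352). Without control replicate 1, Postn was called, with a log2 fold change of 0.43 (edgeR adjusted p = 0.0393). It was called in no other of the 6 fits, where the log2 fold change went down to 0.05 and edgeR adjusted p up to 0.799. Thbs1, or thrombospondin, which can activate latent TGF-beta, had the largest SE of the 44. Its levels were 21.6, 13.0 and 13.6 CPM in mutant hearts, against 14.0, 13.1 and 24.8 CPM in control hearts, with 1 high heart in each group (log2 fold change -0.11, SE 0.26, edgeR adjusted p = 0.785). Fn1, or fibronectin, which binds cells to the matrix through integrins, had a log2 fold change of -0.05 (SE 0.10, edgeR adjusted p = 0.724).

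Small leucine-rich proteoglycans, which bind collagen fibrils, gave 2 calls among the 4 genes of the proteoglycan and fibril organiser group. Dcn, or decorin, had 593.6, 562.4 and 551.7 CPM in mutant hearts, against 492.2, 424.4 and 467.3 CPM in control hearts. Bgn, or biglycan, had 197.1, 221.3 and 205.8 CPM in mutant hearts, against 173.4, 175.0 and 162.4 CPM in control hearts. Both genes were higher in every mutant heart than in any control heart. Their log2 fold changes were 0.30 for Dcn (SE 0.07, edgeR adjusted p = 0.00849) and 0.29 for Bgn (SE 0.07, edgeR adjusted p = 0.00680). Lum, or lumican, had 0.10 (SE 0.11) and Dpt, or dermatopontin, -0.07 (SE 0.08), and neither was called. Lum was called without control replicate 1 (log2 fold change 0.25, edgeR adjusted p = 0.0188) and in no other of the 6 fits, where edgeR adjusted p reached 0.926. With library totals only Dpt was 0.22 and called, which is -0.07 relative to the median of all genes.

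Of the 7 elastic fibre and microfibril genes, 1 was called, Fbln1, which fell, and the median log2 fold change was -0.08. Fbln1, or fibulin 1, which binds elastic fibres and basement membranes, had 51.4, 52.8 and 52.2 CPM in mutant hearts, against 56.8, 64.0 and 63.6 CPM in control hearts. The mutant hearts were closely grouped below all controls (log2 fold change -0.24, SE 0.07, edgeR adjusted p = 0.0187). That call was lost without mutant replicate 2 or control replicate 2 or 3 (0.00658 to 0.0761 over the 6 fits), and with library totals only the log2 fold change was 0.05, which is -0.24 relative to the median of all genes.

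Eln, or elastin, the most abundant of these genes per length, had 291.9, 357.2 and 267.7 CPM in mutant hearts, against 285.5, 385.7 and 294.5 CPM in control hearts. Replicate 2 was the highest heart in both groups, and the groups overlapped (log2 fold change -0.08, SE 0.13). Fbn1, or fibrillin 1, the scaffold of microfibrils, had -0.14 (SE 0.10, edgeR adjusted p = 0.325) and was called lower without control replicate 3 (-0.25, edgeR adjusted p = 0.0214). The other fits without 1 heart did not call Fbn1, with edgeR adjusted p up to 0.662. Of Fbn1's exon bases, 20.1% overlap Gm9913 on the other strand. The fibulins Fbln2 (0.00, SE 0.06) and Fbln5 (-0.12, SE 0.08) and the microfibril-associated Mfap4 (-0.07, SE 0.12) and Mfap5 (-0.01, SE 0.12) were not called, all as log2 fold changes.

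Sequence upstream of 4 called genes of different roles is shown: Lamb1 and Timp3, the calls with the smallest adjusted p, Tcf21, a fibroblast transcription factor, and Tnc, which fell. Each run is RefSeq sequence on GRCm38.p6 (the mm10 build), 5′ to 3′ on the gene's strand, from up to 250 bases before the RefSeq start to the base before the annotated gene. Lower case is plain sequence, and capitals mark a GC box (GGGCGG on either strand) or a TATA box (TATAAA).
Lamb1 (chr12:31265043-31265233, + strand): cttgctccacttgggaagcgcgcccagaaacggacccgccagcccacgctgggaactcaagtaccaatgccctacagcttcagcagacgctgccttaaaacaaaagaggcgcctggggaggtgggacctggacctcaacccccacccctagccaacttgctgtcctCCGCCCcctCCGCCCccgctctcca
Timp3 (chr10:86300162-86300371, + strand): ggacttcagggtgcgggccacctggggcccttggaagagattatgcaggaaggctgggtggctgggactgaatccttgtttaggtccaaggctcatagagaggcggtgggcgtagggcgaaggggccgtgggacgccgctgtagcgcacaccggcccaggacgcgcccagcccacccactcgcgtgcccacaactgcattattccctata
Tcf21 (chr10:22820175-22820393, - strand): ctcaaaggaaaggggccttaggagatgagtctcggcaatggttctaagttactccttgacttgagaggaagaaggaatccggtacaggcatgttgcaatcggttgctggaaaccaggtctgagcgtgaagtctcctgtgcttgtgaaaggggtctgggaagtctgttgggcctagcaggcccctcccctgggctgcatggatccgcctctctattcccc
Tnc (chr4:64047016-64047265, - strand): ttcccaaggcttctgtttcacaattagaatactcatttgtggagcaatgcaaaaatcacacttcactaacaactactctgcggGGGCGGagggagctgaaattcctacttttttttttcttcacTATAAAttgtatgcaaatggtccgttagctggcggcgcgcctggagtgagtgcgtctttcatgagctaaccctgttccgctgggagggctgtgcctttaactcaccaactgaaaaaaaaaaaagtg
The Lamb1 run holds 2 GC boxes, that of Tnc a GC box and a TATA box, and those of Timp3 and Tcf21 neither motif in the part shown.

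Windows of 300 bases, 250 before to 50 after the start, were found in the table for 30 of the 44 genes, 38 windows in all. The core motif of nuclear receptors, AGGTCA on either strand, was in 7.89% of these windows (Fbln5, Gsn and Postn) and in 16.3% of all 32851 windows. The thyroid hormone response element made of that core repeated after a gap of 4 bases, so that each match also counts as a core, was in 0 of the 38 and in 0.0152% of all. The SMAD box CAGACA, an element of TGF-beta signalling, was in 28.9% of windows of the 44 and 21% of all. The GC box was in 63.2% and 35.7% and the TATA box in 15.8% and 13.6%. The AP-1 site TGANTCA was in 2.63% and 7.81%, and the M-CAT site CATTCC in 13.2% and 14.7%. These are matches of letters in short windows and were not tested.

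Partner genes were also compared within hearts. Ratios of deposited RPKM (counts scaled to gene length and library total) do not depend on library scaling, since both genes come from the same heart. There were 17 such ratios, picked after the fold changes had been seen, and 13 did not overlap between groups. Among single genes, the CPM of 49.8% of all tested did not overlap, and the share among ratios of other genes was not computed. With 3 hearts a group, the smallest 2-sided exact permutation p is 0.1, which each of those 13 reached (Benjamini-Hochberg adjusted 0.131), so none could pass the threshold.

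The ratio of Lamb1 to Lamb2, its alternative beta chain, was 1.309, 1.245 and 1.145 in mutant hearts, against 0.483, 0.445 and 0.386 in control hearts. Lamb1 therefore exceeded Lamb2 per length in mutant hearts and was below it in control hearts. Lamb2 itself, no member of the 44, had 246.2, 283.2 and 305.9 CPM in mutant hearts, against 424.2, 478.5 and 492.8 CPM in control hearts (log2 fold change -0.74, SE 0.09, edgeR adjusted p = 2.048e-04). The ratio of Fbn2, the fibrillin of development, to Fbn1 was 0.559, 0.506 and 0.565 in mutant hearts, against 0.136, 0.180 and 0.204 in control hearts. Fbn2 had 96.8, 93.0 and 95.3 CPM in mutant hearts, against 28.7, 37.3 and 32.6 CPM in control hearts (log2 fold change 1.53, SE 0.09, edgeR adjusted p = 2.41e-06). The log2 fold change of Fbn2 was larger than that of any of the 44.

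Chains that assemble into the same molecule were compared in this way. Col4a2 to Col4a1 averaged 0.697 ± 0.0156 in mutant hearts and 0.791 ± 0.0332 in control hearts (SD, n = 3 each). Col6a2 to Col6a1 averaged 0.519 ± 0.0158 in mutant hearts and 0.406 ± 0.0168 in control hearts (SD, n = 3 each). Lamb1 to Lamc1 averaged 0.642 ± 0.0187 in mutant hearts and 0.458 ± 0.0368 in control hearts, and Lama2 to Lamc1 averaged 0.181 ± 0.00656 in mutant hearts and 0.213 ± 0.00475 in control hearts (SD, n = 3 each). In contrast, the chains of collagen I overlapped, with Col1a1 to Col1a2 at 1.503 ± 0.0788 in mutant hearts and 1.493 ± 0.112 in control hearts (SD, n = 3 each). Col5a1 to Col5a2 and Col6a3 to Col6a1 overlapped as well. So did Col3a1 to Col1a1, a ratio of collagen III to collagen I and not of chains of the same molecule.

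The other fibroblast markers and Fap were set against Pdgfra. Fap to Pdgfra averaged 0.0942 ± 0.0103 in mutant hearts and 0.195 ± 0.0228 in control hearts, the widest difference of these marker ratios on the log2 scale. Thy1 to Pdgfra averaged 0.256 ± 0.0276 in mutant hearts and 0.390 ± 0.00838 in control hearts (SD, n = 3 each). Ddr2 to Pdgfra averaged 0.411 ± 0.00460 in mutant hearts and 0.500 ± 0.0424 in control hearts. In the other direction, Tcf21 to Pdgfra averaged 0.647 ± 0.0505 in mutant hearts and 0.541 ± 0.0233 in control hearts, and Gsn to Pdgfra 24.2 ± 1.56 in mutant hearts and 17.7 ± 1.91 in control hearts. Timp2 to Mmp2, an inhibitor to a protease, averaged 1.01 ± 0.00580 in mutant hearts and 0.875 ± 0.0541 in control hearts, and Timp3 to Timp2 averaged 0.746 ± 0.0593 in mutant hearts and 0.611 ± 0.0451 in control hearts.

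**Figure D3:**
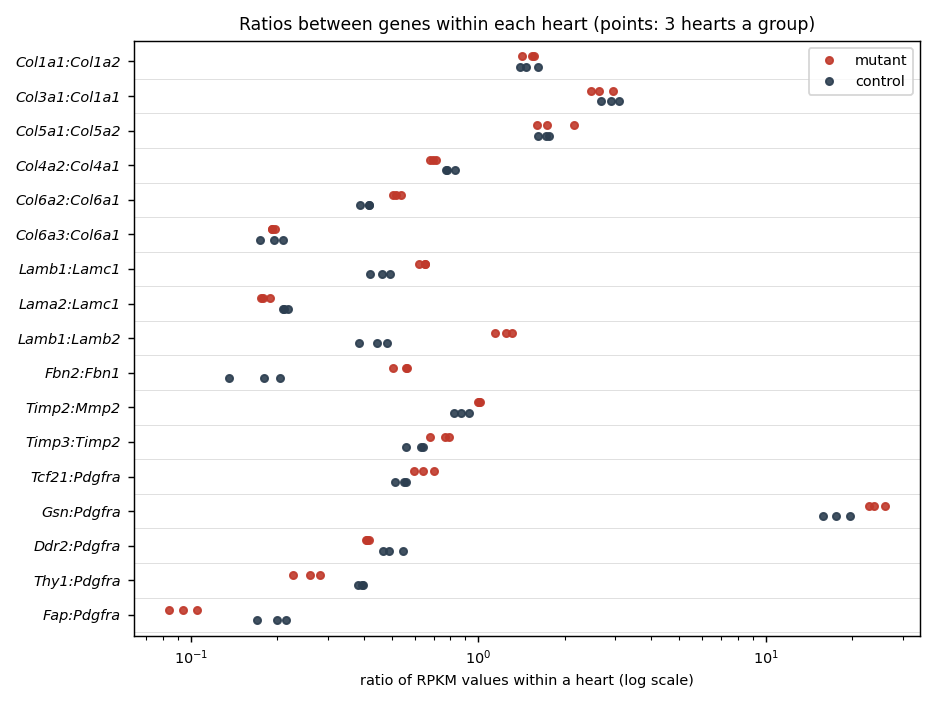
Ratio of the RPKM values of 2 genes within each heart (x axis, log scale) for the 17 pairs, each point a heart, with mutant hearts drawn above control hearts. Lamb1 to Lamb2 and Fbn2 to Fbn1 stand far apart between the groups, while Col1a1 to Col1a2 overlaps.

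Per length, the levels spanned a wide range in both groups. Sparc led with a mean of 428 RPKM in mutant hearts and 265 RPKM in control hearts, and Tnc was last with 0.662 RPKM in mutant hearts and 0.839 RPKM in control hearts. Gsn ranked 2 in mutant hearts, with 313 ± 25.3 RPKM, above Col4a1 with 217 ± 12.1 RPKM (SD, n = 3 each). In control hearts the order was Col4a1 with 189 ± 19.7 RPKM, Gsn with 154 ± 13.5 RPKM and Col4a2 with 149 ± 11.1 RPKM (SD, n = 3 each), and Gsn and Col4a2 did not differ beyond their spread. Mmp2 and Col1a1 were such neighbours too, at 55.7 ± 1.99 and 56.0 ± 8.56 RPKM in mutant hearts and 39.2 ± 1.85 and 39.2 ± 2.98 RPKM in control hearts. Timp3 was ranked 17 in mutant hearts and 25 in control hearts. The lowest ranks below Thbs1 in control hearts belonged to Fap, Timp1 and Tnc. RPKM values carry the library-total scaling, and on it the median of all genes was higher in mutant hearts.

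**Figure D4:**
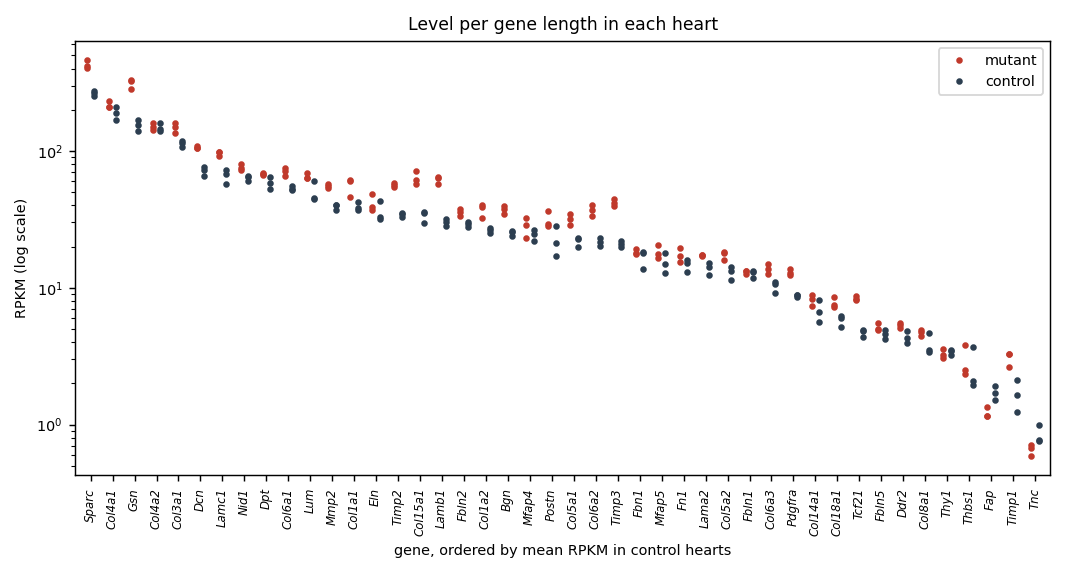
RPKM (y axis, log scale) of each of the 44 genes in each heart, ordered along the x axis by the mean in control hearts, with mutant points left of control points. Sparc leads with a mean of 428 RPKM in mutant hearts and 265 RPKM in control hearts, and the mutant points of Fap and Tnc lie below their control points.

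The spread within a group was compared with that of all genes. The median coefficient of variation was 6.22% in mutant hearts and 9.06% in control hearts, where all genes tested gave 7.53% and 7.98%. Control replicate 3 was the lowest of the control hearts for 31 of the 44, compared with 37.2% of all genes tested. Mutant replicate 2 was the highest mutant heart for 25 of the 44, compared with 29.9% of all genes tested. Without control replicate 3, 13 of the 44 were called higher and 5 lower, beside 16.1% and 17.3% of all genes.

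Other genes of the matrix and of fibroblasts, on lists written with earlier results known, also had calls in both directions. Among all genes tested, 18.1% were called higher, 19.5% lower and 37.5% either way. In the fits without 1 heart, 13.5% to 17.6% of all genes were called higher and 14.8% to 18.9% lower. Mutant hearts had 9 of 19 other fibroblast genes called higher (47.4%) and 3 called lower (15.8%), with a median log2 fold change of 0.23. Leaving out 1 heart gave 2 to 7 higher, the fewest without mutant replicate 2, and 3 to 4 lower. Prrx1, a mesenchymal transcription factor (0.54, SE 0.07), and Mgp, or matrix Gla protein (0.45, SE 0.07), rose. Ly6a, the stem cell antigen Sca-1 (-0.86, SE 0.09), and Clec3b, or tetranectin (-0.56, SE 0.06), fell on the same log2 scale. These had edgeR adjusted p between 7.373e-05 for Ly6a and 5.838e-04 for Mgp.

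Of 17 other collagens tested, 6 were called, all higher, with a median of -0.00. That was 35.3% of the list, where 37.5% of all genes tested were called either way and 18.1% higher. When 1 heart was left out, 4 to 6 were called higher, and 1 lower without mutant replicate 3 or control replicate 3. Col7a1, Col4a5, Col9a2 and Col5a3 had the smallest p among the 6, with log2 fold changes of 0.63, 0.30, 0.90 and 0.39 (SE 0.15, 0.07, 0.22 and 0.11). Levels were low for Col9a2 (means of 1.36 CPM in mutant hearts and 0.724 CPM in control hearts) and Col7a1 (3.90 and 2.51 CPM). The edgeR adjusted p of Col5a3 reached 0.0627 over the 6 fits that leave out 1 heart. Of 9 other basement membrane genes tested, 5 were higher and 2 lower, with a median of 0.45, and both counts were the same in each of the 6 fits that leave out 1 heart. Lama3, a laminin chain best known from epithelia (1.29, SE 0.12), and Agrn, or agrin (0.57, SE 0.08), rose beside the fall of Lamb2.

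Of 33 other matrix glycoproteins and proteoglycans tested, 8 were higher and 4 lower, with a median of 0.05, and the range without 1 heart was 6 to 8 higher and 4 to 6 lower. The calls made up 36.4% of the list, near the 37.5% of all genes tested. Beside Fbn2, Thbs4, a thrombospondin (2.80, SE 0.19), rose, and Emilin2, an elastic fibre glycoprotein (-1.36, SE 0.08), and Vtn, or vitronectin (-1.16, SE 0.07), fell on the log2 scale. Of 21 other proteases and inhibitors tested, 7 were higher and 2 lower, with a median of 0.15, and 1 was lower without mutant replicate 2 or control replicate 3. Serpine2, an inhibitor of serine proteases (0.45, SE 0.09), and Mmp14 (0.30, SE 0.06), a membrane protease that activates Mmp2, rose, and Plat, a plasminogen activator (-0.31, SE 0.07), fell. With library totals only, 15 of these 21 genes were called higher and 0 lower, where 50.3% and 8.11% of all genes were.

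Signals to fibroblasts and matrix receptors were looked at in the same way, again beside 18.1% of all genes tested called higher and 19.5% lower. Of 26 genes of TGF-beta ligands, receptors and targets tested, 13 were higher and 2 lower, with a median log2 fold change of 0.21. When 1 heart was left out, 10 to 13 were higher and 2 to 3 lower. Activity of the pathway was not measured. Inhba, a subunit of activin, had 17.9, 16.5 and 9.98 CPM in mutant hearts, against 2.30, 2.66 and 2.40 CPM in control hearts. Its mutant hearts were all higher, though replicate 3 was well below the others (log2 fold change 2.58, SE 0.21, edgeR adjusted p = 1.652e-05). Bambi, a decoy receptor of the pathway (0.96, SE 0.13), and Tgfb2, a ligand (0.72, SE 0.10), also rose.

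Of 10 PDGF and FGF genes tested, 3 were higher and 3 lower, with a median of -0.10, where 18.1% and 19.5% of all genes were. Pdgfa, a ligand of Pdgfra (0.56, SE 0.07), and Fgfr2 (0.84, SE 0.16) rose, and Pdgfb (-0.43, SE 0.11) and Pdgfd (-0.26, SE 0.07) fell. Exons of 6330403L08Rik on the other strand overlap 26.1% of the exon bases of Pdgfa. With library totals only, 4 of the 10 were called higher and 0 lower, where 50.3% and 8.11% of all genes were. Pdgfd was 0.02 on that scaling, which is -0.26 relative to the median of all genes. Without mutant replicate 2, 2 were higher and 1 lower, and 1 was lower without control replicate 1. Of 25 integrins and other matrix receptors tested, 8 were higher and 4 lower, with a median of 0.12, against 5 and 2 without control replicate 2, and 7 and 2 without mutant replicate 2. Itgb6, an integrin that activates TGF-beta (-3.20, SE 0.14), and Itga7, a laminin receptor of muscle (-0.94, SE 0.08), fell, and Ddr1, a collagen receptor related to Ddr2 (1.22, SE 0.09), and the hyaluronan receptor Cd44 (0.93, SE 0.11) rose, all on the log2 scale.

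**Figure D5:**
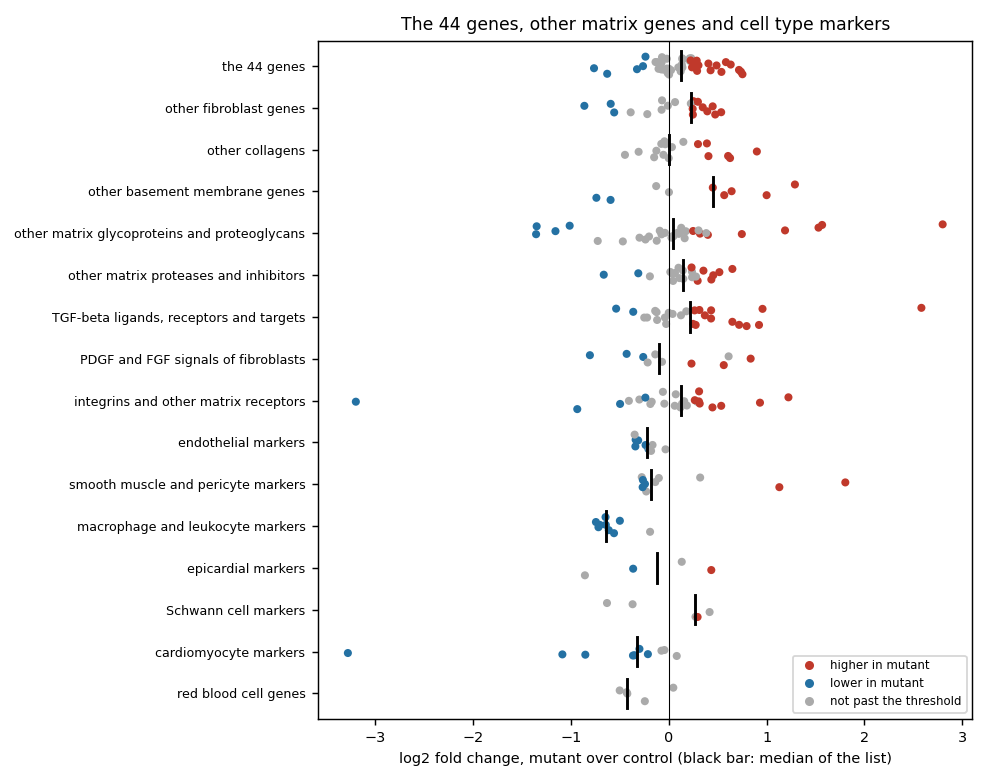
Log2 fold change (mutant over control, edgeR with TMM, x axis) of every tested gene in the 44 and in each other list, a point per gene, coloured by its call, with a black bar at the median of the list. Macrophage and leukocyte markers have 8 of 9 points called lower, and the TGF-beta list has 13 higher and 2 lower of 26. Among all genes tested, 18.1% were called higher and 19.5% lower.

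Markers of other cell types in the heart had calls too. For all the marker lists that follow, the shares of all genes tested were 18.1% called higher, 19.5% lower and 37.5% either way. Of 9 macrophage and leukocyte markers tested, 8 were called, all lower, and their CPM summed to 103.3 to 109.4 in mutant hearts and 155.3 to 171.6 in control hearts. Csf1r (-0.65), C1qa (-0.70), C1qb (-0.72) and C1qc (-0.75) led them on the log2 scale. Of 10 endothelial markers, 5 were called, all lower, with sums of 1445 to 1569 CPM in mutant hearts and 1678 to 1821 CPM in control hearts. There were 3 such calls without mutant replicate 1 or control replicate 2, and none of the 10 was called with library totals only, where their median was 0.06, which is -0.22 relative to the median of all genes and the same as with TMM. The endothelial genes with the smallest p were Tek (-0.31), Emcn (-0.34), Tie1 (-0.34) and Kdr (-0.24). Endothelial cells make collagen IV, and the part of these markers in the fall of Col4a2 was not tested.

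Smooth muscle and pericyte markers had 2 higher and 3 lower of 10, with sums of 2290 to 2379 CPM in mutant hearts and 2485 to 2712 CPM in control hearts. Cspg4 (1.13) and Cnn1 (1.81) rose, and Kcnj8 (-0.27) and Abcc9 (-0.24) fell. With library totals only Kcnj8 and Abcc9 were 0.02 and 0.04, which are -0.27 and -0.24 relative to the median of all genes, and 1 marker was lower without mutant replicate 2, control replicate 1 or control replicate 2. Epicardial markers had 1 higher (Tbx18, 0.43) and 1 lower (Wt1, -0.36) of 4 tested, with sums of 33.8 to 36.9 CPM in mutant hearts and 30.2 to 36.0 CPM in control hearts, and the epicardial Upk3b, Msln and Upk1b were too low to test. Exons of D030062O11Rik on the other strand overlap 20.6% of the exon bases of Tbx18. The call of Wt1 was lost in 4 of the 6 fits that leave out 1 heart. Of 5 Schwann cell markers, 1 was called (Cnp, 0.29), a call lost in 4 of those 6 fits, with sums of 22.8 to 27.7 CPM in mutant hearts and 20.6 to 22.7 CPM in control hearts.

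Of 10 heart muscle markers, 7 were called, all lower, and their CPM summed to 40650 to 42780 in mutant hearts and 78740 to 87330 in control hearts. Myh6 made up most of that difference, and the other 9 summed to 37134 to 38454 CPM in mutant hearts and 43609 to 48411 CPM in control hearts. With library totals only, 3 of the 10 were lower and 1 higher, with a median of -0.04, which is -0.32 relative to the median of all genes, against a median of -0.33 with TMM. Myh6 (-3.28), Ryr2 (-1.09), Myl3 (-0.85) and Tnnc1 (-0.37) led them on the log2 scale. Of 5 red blood cell genes such as Hbb-bs and Hba-a1, 0 were called by DESeq2 or by edgeR with group as the only term, with 0 at an unadjusted p under 0.05. With replicate number added as a term in edgeR, 3 of the 5 were called lower, where 21.7% of all genes were. Without mutant replicate 2, 4 were called lower, and that heart stood apart with a sum of 241.7 CPM beside 106.4 and 91.2 CPM in the other mutant hearts, against 157.4, 244.6 and 168.8 CPM in control hearts. The deposited counts hold no gene at 0 in all hearts, so a listed gene without any count could not be matched. The part of these marker changes in the results on the 44 genes was not tested.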

How the data were processed

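RNA was extracted with Trizol from 6 whole hearts, 3 mutant and 3 control, and libraries were made with Illumina TruSeq v2, per the labels' protocols. Each heart had a deposited table of gene counts, all whole numbers under Ensembl identifiers. The submitters' processing notes name mm10, featureCounts 1.5.1, STAR 2.5.2b and cutadapt 1.9 without saying what each did. The authors also deposited RPKM, which was checked to be the count scaled by gene length and library total (relative spread 4.15e-10) and so has no correction for composition. For the counting, strand setting and annotation: not given in the sources used here.

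Symbols came from GENCODE M21, which matched 20081 of 20121 identifiers. Counts were filtered with filterByExpr, scaled by TMM and tested with edgeR 4.0.16 in R 4.3.3, with group as the only term and all 6 hearts in the fit. Standard errors (SE) on the log2 scale were approximated from the F statistic of each gene. Alternatives used DESeq2 1.42.0, limma 3.58.1 on log2(RPKM + 1) and log2(RPKM + 0.1), RLE scaling, library totals, no filter, a replicate block, and each heart left out in turn. The procedure was tested on simulated data. All 6 libraries carry 1 run identifier, and the labels name no batch of extraction or preparation.

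The 44 genes and the other 15 lists were chosen with earlier results of these data known. All 44 are named. From each other list, up to 4 called genes with the smallest adjusted p were named, or the 2 with the highest CPM where none was called. Some of these genes are not reported here. Pairs for ratios were chosen after their values were seen. Upstream sequences are from RefSeq on GRCm38.p6, matched by symbol.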

Additional observations from a re-analysis of the deposited data

How the results depend on the processing

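Scaling had the largest effect. With library totals only, 8686 of all genes were called (7479 higher and 1207 lower), and 31 of the 44 (29 higher and 2 lower). With limma on log2(RPKM + 1), 8564 genes were called (7349 higher and 1215 lower), with 29 of the 44 higher and 1 lower, and with log2(RPKM + 0.1) these were 8612 (7391 and 1221), 29 and 1. These 3 alternatives leave out the correction for composition, which shifts all genes together, and under them, in that order, the log2 fold change turned to 0.0215, 0.0208 and 0.0209 for Col4a2, 0.2647, 0.2592 and 0.2626 for Nid1, 0.0468, 0.0441 and 0.0472 for Fbln1, 0.2155, 0.2152 and 0.2184 for Dpt, 0.0226, 0.018 and 0.0198 for Pdgfd, 0.0482, 0.0461 and 0.0477 for Kdr, 0.0179, 0.0167 and 0.0174 for Kcnj8, and 0.0414, 0.0412 and 0.0417 for Abcc9. Tnc was called with library totals but not with RPKM. RLE scaling and DESeq2 each added Col1a2 to the 20 calls, and no filter on low counts changed none. With each heart left out in turn, 4273 to 5517 genes were called, and 14 to 21 of the 44, with 11 to 16 higher and 2 to 5 lower. Of the 20 called genes, 13 were called in all 6 of those fits, and 12 (the 13 without Tnc) in all 13 alternatives. Over the 44 genes and 13 alternatives, 491 of 572 values kept their direction and side of the threshold or changed sign uncalled (52 of them), 43 gained a call, 26 lost one and 12 turned round. The labels do not say whether the same replicate number pairs a mutant with a control heart. Deviations from the group means correlated at 0.155, -0.0502 and 0.0956 between hearts of the same number. Between hearts of different numbers they correlated at -0.175 to 0.0913, so these values do not settle the pairing. With a replicate block, 6319 genes were called (3090 higher and 3229 lower), against 5586 without it. The block left 20 of the 44 called and changed no call among them. Depth limits Timp1 most, with as few as 48 counts in a heart.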
